A study of Homo sapiens with 2 samples.

Results

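The genes described here are those of 10 enzymes that make purine nucleotides: PPAT, GART, PFAS, PAICS, ADSL and ATIC of the chain leading to inosine monophosphate (IMP), IMPDH1, IMPDH2 and GMPS of the branch from IMP to guanosine monophosphate (GMP), and the salvage enzyme HPRT1. They were taken by gene name and hold 70 of the 95139 transcripts and 10 of the 20263 genes in the deposited table. The set was chosen by the transcript values of PAICS in the same pair of libraries, so these values are given as a description. Transcript levels from RNA-seq were compared between 2 libraries of the human embryonic stem cell line H9, each treated with small interfering RNA for 48 h. In the siHNRNPA1 library the target was HNRNPA1, which encodes an RNA-binding protein that acts in splicing, and the sicontrol library (the control below) received control RNA; no further agent or genetic change is named for either. With 1 library per condition there is no spread between replicates, no test was run, and the intervals below (95%, exact for counts) cover counting error only.

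Purine synthesis builds the purine ring on a ribose phosphate in a fixed series of steps from phosphoribosyl pyrophosphate (PRPP), glycine, glutamine, aspartate, carbon dioxide and formyl groups carried by folate. PPAT commits PRPP to the pathway, the later enzymes complete the ring as IMP, and IMP is then turned into either adenine or guanine nucleotides. Salvage enzymes instead attach a finished base to PRPP. Dividing cells, pluripotent stem cells among them, draw on the pathway for nucleic acids and cofactors.

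PAICS and PPAT stand back to back on chromosome 4 (GRCh38). PPAT runs on the minus strand from 56435615, PAICS on the plus strand from 56435741, and 125 bases lie between. PAICS also has transcripts that begin further downstream, within the first intron of the others. Both start regions are shown, since the PAICS transcripts that differed between the libraries use different ones and since PPAT and PAICS lay on opposite sides of the control. Capitals mark GGGCGG, searched on both strands; CACGTG and CCAAT were searched as well and are absent from these 2 stretches. The letters are from the RefSeq promoter table (GRCh38.p14), plus strand.
Between the PPAT and PAICS starts, chr4:56435616-56435740: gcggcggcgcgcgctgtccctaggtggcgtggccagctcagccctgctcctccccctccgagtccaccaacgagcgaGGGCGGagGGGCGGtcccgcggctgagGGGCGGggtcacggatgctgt
Before the downstream PAICS starts, chr4:56436010-56436137: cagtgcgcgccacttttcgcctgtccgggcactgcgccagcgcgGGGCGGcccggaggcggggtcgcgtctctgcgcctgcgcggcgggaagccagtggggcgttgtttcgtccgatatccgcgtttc
The first stretch has a GC content of 76% and 3 matches, the second 72.7% and 1 match.

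The transcripts of PAICS also differ in their coding part. PAICS-202 alone holds an exon of 21 bases (chr4:56446357-56446377), which adds 7 codons. It is shown in capitals between 30 coding bases on each side, above the junction that PAICS-201, PAICS-207 and PAICS-208 have in its place (GENCODE 29, plus strand).
PAICS-202: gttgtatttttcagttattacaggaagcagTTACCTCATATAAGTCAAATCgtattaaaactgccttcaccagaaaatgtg
PAICS-201, PAICS-207 and PAICS-208: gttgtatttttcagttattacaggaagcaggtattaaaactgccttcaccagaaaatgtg
The annotated coding sequences of PAICS-201 and PAICS-208 start at different codons, given in capitals with the coding bases that follow.
PAICS-201, start at chr4:56436313: ATGgcgacagctgaggtactgaacattggt
PAICS-208, start at chr4:56446757: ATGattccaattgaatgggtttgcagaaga

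The table lists 5 transcripts of PAICS (ENSG00000128050), whose protein carries out a carboxylation step and the step that joins aspartate to the intermediate. In the control library the leading form was PAICS-207, at 23.9 FPKM, a level in fragments normalised for transcript length and library size. It was followed by PAICS-204 at 14.3 FPKM, PAICS-201 at 10.7 FPKM and PAICS-202 at 3.20 FPKM, while PAICS-208 was at 0.563 FPKM. PAICS-204 is an incomplete entry of 1514 bases, against 3339 in PAICS-201. Its place above PAICS-201 holds in FPKM only, since it had 670 estimated counts in the control and PAICS-201 had 1113. In the siHNRNPA1 library PAICS-208 stood at 104 FPKM, PAICS-207 at 4.19, PAICS-201 at 0.754, PAICS-202 at 0.155 and PAICS-204 at 0.0785 FPKM. One form thus made up nearly the whole gene in one library and was the least abundant form in the other. The share of PAICS-208 in the gene's FPKM was 95.3% with siHNRNPA1 and 1.07% in the control, a difference of 94.2 percentage points. By estimated counts, 11592 against 59, the shares were 92.0% (95% Clopper-Pearson interval 91.5% to 92.5%) and 0.846% (0.644% to 1.09%). PAICS-207, the control's leading form, had 3.82% and 45.3% of the FPKM, and PAICS-204 0.0717% and 27.1%.

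**Figure D1:**
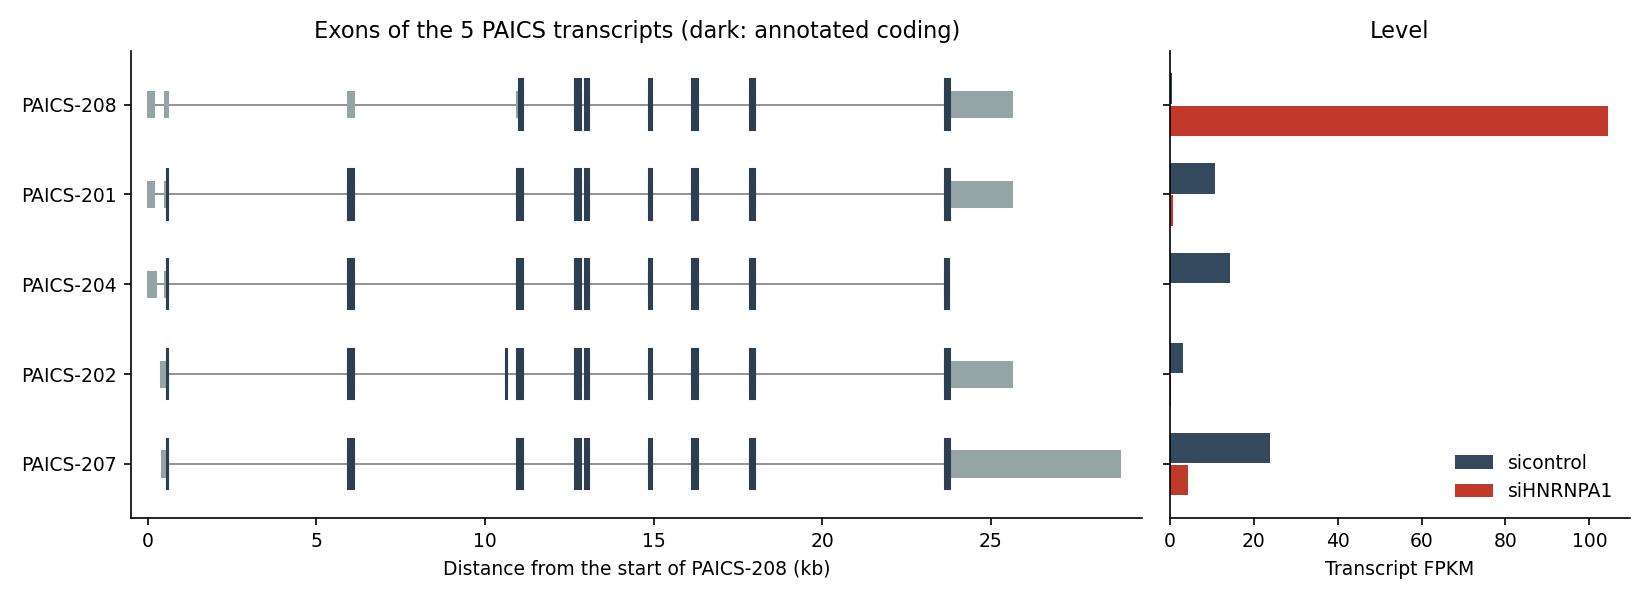
Left, exons of the 5 PAICS transcripts by distance from the start of PAICS-208 in kb, with annotated coding parts dark. Right, bars give each transcript's FPKM in the 1 library per condition: PAICS-208 is at 104 FPKM with siHNRNPA1 and 0.563 in the control, and every other form is higher in the control.

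PAICS-208 and PAICS-201 are nearly the same molecule in the annotation. They share all 9 introns, and PAICS-208 starts 8 bases earlier and ends 7 bases earlier. The coding sequence of PAICS-201, 1275 bases, lies whole within PAICS-208. The 999 bases annotated as coding in PAICS-208 are the end of it, beginning 276 bases downstream at the second start codon printed above. Reads within these transcripts therefore cannot tell the pair apart, and the division between them rests on their outermost bases. Joined, the pair had 105.2 FPKM with siHNRNPA1 and 11.3 in the control, 9.30 times as much. Their joint share was 96.0% against 21.5% of FPKM, a difference of 74.5 points, and by counts 92.7% (92.2% to 93.1%) against 16.8% (15.9% to 17.7%). Joining was chosen after the values had been seen. It lowers the difference, and it puts PAICS-201, which taken by itself was higher in the control, with the form that was higher with siHNRNPA1.

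Set out by where the transcripts begin, the 3 forms with the upstream start (PAICS-201, PAICS-204 and PAICS-208) had 105.2 FPKM with siHNRNPA1 and 25.6 in the control. The 2 forms with the downstream start (PAICS-202 and PAICS-207) had 4.34 and 27.1 FPKM. The upstream start thus held 96.0% of the gene's FPKM in one library and 48.6% in the other. By counts it held 92.7% (92.2% to 93.1%) with siHNRNPA1 and 26.4% (25.4% to 27.5%) in the control. At the other end, PAICS-207 runs 3211 bases past the end of PAICS-201, and it is the only form with the far end. The forms complete to the near end (PAICS-201, PAICS-202 and PAICS-208) together had 105.3 FPKM with siHNRNPA1 and 14.5 in the control. The start and the end of PAICS-207 differ together from those of PAICS-208, so these values do not say which of them the difference concerns. PAICS-204 is annotated as incomplete at its end. Its first intron differs too, as its first exon ends 234 bases from the start of PAICS-208, against 187 in PAICS-201 and PAICS-208. The form with the exon of 21 bases, PAICS-202, had 18 counts with siHNRNPA1 and 328 in the control, or 0.143% (0.0847% to 0.226%) and 4.70% (4.22% to 5.23%) of the gene's counts.

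Summed over its transcripts, PAICS had 109.6 FPKM with siHNRNPA1 (counting interval 107.7 to 112) and 52.6 in the control (51.4 to 53.9). The log2 fold, log2((siHNRNPA1 + 1)/(control + 1)) of FPKM, was 1.04. By counts scaled to library size (CPM), which take no account of transcript length, PAICS was 1.71 times the control (1.66 to 1.76), within 2-fold. The mean length of a PAICS transcript, weighted by FPKM, was 3459 bases with siHNRNPA1 and 4264 in the control.

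By the size of the largest transcript share difference PAICS ranked 8 of 3893 genes with at least 10 FPKM in both libraries. The rank uses the 94.2 points of PAICS-208 alone and not the 74.5 points of PAICS-208 joined with PAICS-201. Just above PAICS were NREP with a difference of -94.8 points (NREP-205), LMNA with -94.8 (LMNA-206) and MCM3AP with 94.9 (MCM3AP-201). Just below it were DDX19A with 93.8 points (DDX19A-214), ZBED5 with 93.3 and VGF with -93.3 (VGF-201). Each sign is that of the form with the largest difference. It gives no direction for the gene, since share gained by some forms is lost by others. MCM3AP, NREP and DDX19A overlap another gene on the same strand. Of 5715 genes with at least 2 transcripts and 5 FPKM in both libraries, 40.6% had a difference of at least 20 points. Among the 9 purine enzymes compared it was 4 (PAICS, GMPS, ATIC and IMPDH1), a share near this background even with PAICS, for which the set was picked, counted in, with a median largest difference of 19.1 points against 15.4 over all genes. With transcripts of the same introns joined it was the same 4 enzymes, and 40.2% of all genes. HPRT1 has 1 listed transcript and could not be compared.

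**Figure D2:**
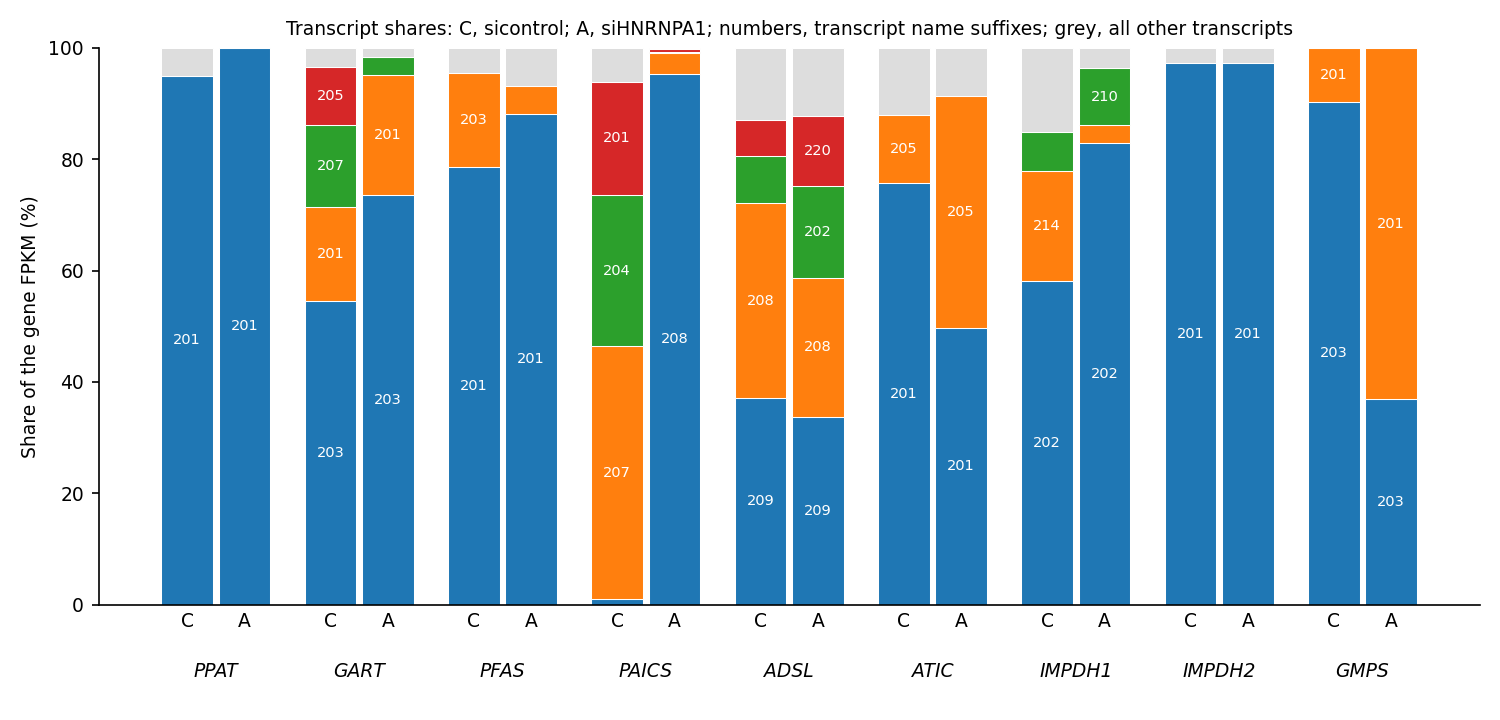
Stacked bars give each transcript's share of its gene's FPKM in percent for the 9 genes with several transcripts, control (C) beside siHNRNPA1 (A); a colour stands for 1 transcript within a gene and grey for transcripts under 10% in both libraries. The leading form of PAICS is PAICS-207 in the control and PAICS-208 with siHNRNPA1, that of GMPS is GMPS-203 and GMPS-201, while the leading form of IMPDH2 has 97.4% and 97.3%.

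The 10 genes were also compared at gene level. All passed the minimum of 1 FPKM averaged over the libraries that 11921 genes passed. With siHNRNPA1, 2 were at least 2-fold higher (PFAS and PAICS), where 12.4% of all genes were, and 1 was at least 2-fold lower (PPAT), where 21.9% were. The other 7 were within 2-fold, so that 3 of 10 were past it, where 34.3% of all genes were. Over all genes 1480 were higher and 2609 lower, or 1920 and 2231 with the libraries rescaled to a median ratio of 1. The median log2 fold was 0.34 for the 10 genes and -0.13 for all genes kept. In bulk RNA, fewer cells of a type and less RNA per cell cannot be told apart.

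**Figure D3:**
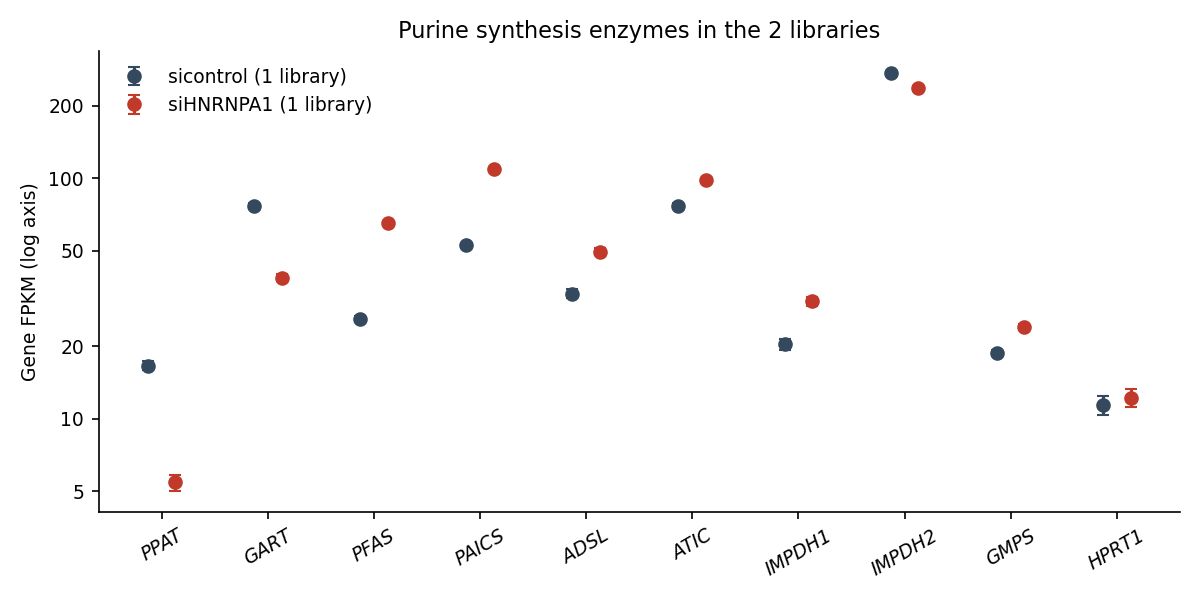
Points give the FPKM of each gene (log axis) in the 1 library per condition, with 95% counting intervals as bars, in the order of the pathway from PPAT. PPAT and GART lie below the control, PFAS and PAICS above it, and the intervals of HPRT1 overlap.

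PPAT and GART, the first enzymes of the chain, were lower with siHNRNPA1, but stood at only -0.23 and -0.42 once the median fold of genes of like GC content, length and level was subtracted. PPAT, the amidotransferase that commits PRPP to purines, had 5.43 FPKM with siHNRNPA1 (5.02 to 5.86) and 16.6 in the control (15.9 to 17.4), a log2 fold of -1.46. It thus had 32.6% of its control level, in contrast to PAICS, its divergent neighbour. PPAT-201 carried 94.9% of the gene's FPKM in the control and all of it with siHNRNPA1. The 2 other forms, both annotated as targets of nonsense-mediated decay, were listed at 0 with siHNRNPA1 and had 13 and 4 counts in the control. GART, a protein of 3 enzyme activities acting at separate steps, had 38.5 FPKM with siHNRNPA1 (37.3 to 39.8) and 77.0 in the control (75.2 to 78.9). At a log2 fold of -0.98 it lay just inside 2-fold. PAICS, at 1.04, lay just outside.

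Within GART the forms with the 2 alternative first exons differed. GART-203 and GART-205 have the same coding sequence behind different first exons. GART-203 had 28.4 FPKM with siHNRNPA1 and 41.9 in the control. GART-205 was listed at 0 with siHNRNPA1 and had 8.02 FPKM (862 counts) in the control. GART-207, an incomplete form with an overlapping first exon, had 1.29 and 11.3 FPKM, or 3.34% and 14.6% of the gene. Over all transcripts that begin with an exon overlapping that of GART-205, the level was 1.60 FPKM with siHNRNPA1 and 19.7 in the control, or 4.16% and 25.6% of the gene. SON overlaps this first exon on the opposite strand, and no source used here says whether the libraries keep strand. The short form GART-201 ends inside the gene, and its annotated coding sequence of 1299 bases compares with 3030 in the full form. It had 8.29 FPKM with siHNRNPA1 and 13.1 in the control. Of the short and full forms it made up 15.9% of counts with siHNRNPA1 (14.7% to 17.1%) and 14.4% in the control (13.5% to 15.3%), and these intervals overlap.

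PFAS, which adds nitrogen from glutamine at the fourth step, had the highest fold of the 10 genes. It stood at 65.4 FPKM with siHNRNPA1 (64.2 to 66.7) and 26.003 in the control (25.2 to 26.9), a log2 fold of 1.30. Its full-length form PFAS-201, 4014 coding bases, had 57.7 and 20.4 FPKM, so that it held 88.1% and 78.6% of the gene. PFAS-203, an incomplete form annotated as a decay target, had 3.30 and 4.39 FPKM and a share of 5.04% with siHNRNPA1 and 16.9% in the control. The PFAS locus overlaps CTC1 on the opposite strand ahead of the start of PFAS-201.

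ADSL and ATIC follow PAICS in the chain. ADSL, the lyase that releases fumarate here and again on the way to AMP, had 49.5 FPKM with siHNRNPA1 (47.8 to 51.2) and 33.1 in the control (31.7 to 34.5), a log2 fold of 0.57. Its leading entry by FPKM in both libraries was ADSL-209, a short decay target of 856 bases with 16.7 and 12.3 FPKM. The full form ADSL-208 had 12.3 and 11.6 FPKM, while ADSL-202, which lacks 1 coding exon, had 8.12 and 2.79 and ADSL-220 had 6.29 and 2.16 FPKM. Of the complete forms, ADSL-202 made up 18.5% of counts with siHNRNPA1 (17.0% to 20.003%) and 8.49% in the control (7.25% to 9.86%). ADSL-202 also ends 2371 bases before ADSL-208, so the exon is not the only difference between them. The exon it lacks, 177 bases or 59 codons, is shown as the coding part that sets ADSL-202 apart (GENCODE 29, plus strand). ADSL-220, which holds the exon, was as much higher with siHNRNPA1, at 2.91 times the control in FPKM for each of these 2 forms.
ADSL exon, chr22:40364880-40365056: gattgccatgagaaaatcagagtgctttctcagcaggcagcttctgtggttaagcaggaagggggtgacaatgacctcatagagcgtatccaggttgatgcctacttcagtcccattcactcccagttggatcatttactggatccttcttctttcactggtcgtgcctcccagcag
ADSL overlaps the genes AL022238.4 and SGSM3 on the same strand, so its reads are uncertain.

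ATIC, whose 2 activities add the last formyl group and close the ring, had 98.0 FPKM with siHNRNPA1 (95.8 to 100.3) and 77.0 in the control (74.9 to 79.1), a log2 fold of 0.34. Its forms differed more than the gene did. ATIC-205 had 40.7 FPKM with siHNRNPA1 and 9.39 in the control, or 41.5% and 12.2% of the gene. ATIC-201, the standard form, had 48.7 and 58.2 FPKM, or 49.7% and 75.7%. The first exon of ATIC-205 spans the 336 bases that ATIC-201 removes as its first intron, and its coding sequence is annotated from another start codon.

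In the guanine branch, IMPDH catalyses the oxidation of IMP, the rate-limiting step to GMP, in 2 isoforms from 2 genes. IMPDH2, the isoform of proliferating cells, was the most abundant of the 10 genes in both libraries, with 238 FPKM with siHNRNPA1 (234 to 242) and 273 in the control (268 to 278), a log2 fold of -0.20. Its leading form (ENST00000326739) held 97.3% and 97.4% of it. IMPDH1 had 30.7 FPKM with siHNRNPA1 (29.53 to 31.98) and 20.4 in the control (19.3 to 21.5), a log2 fold of 0.57. Within IMPDH1 the leading form (ENST00000348127) had 25.5 and 11.9 FPKM, 82.8% and 58.2% of the gene. A form that begins at a downstream first exon (ENST00000496200) had 1.01 and 4.03 FPKM, 3.27% and 19.8%. Another that also begins downstream (ENST00000480861) was higher with siHNRNPA1, at 3.14 and 1.42 FPKM.

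GMPS, which aminates xanthosine monophosphate to GMP, had the second largest transcript difference. GMPS-203 had 8.87 FPKM with siHNRNPA1 and 16.9 in the control, and GMPS-201 had 15.2 and 1.83 FPKM. The share of GMPS-201 was 63.1% with siHNRNPA1 and 9.77% in the control, 53.4 points apart. In counts it was 1018 against 115, or 28.3% (26.8% to 29.8%) and 2.44% (2.01% to 2.92%) of the gene. GMPS-201 lacks 2 coding exons of 182 and 115 bases, together 99 codons, and ends 6316 bases before GMPS-203. The 2 exons are printed as joined in GMPS-203, since they set the proteins of the 2 forms apart (GENCODE 29, plus strand; the exons lie at chr3:155893518-155893699 and chr3:155897927-155898041).
GMPS exons left out of GMPS-201: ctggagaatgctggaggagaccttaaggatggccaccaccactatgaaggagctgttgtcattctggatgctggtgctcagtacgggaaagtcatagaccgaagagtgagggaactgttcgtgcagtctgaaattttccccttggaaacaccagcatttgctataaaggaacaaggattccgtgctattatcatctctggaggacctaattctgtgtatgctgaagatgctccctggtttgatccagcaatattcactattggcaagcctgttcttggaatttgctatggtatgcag
The gene total of GMPS depended on the unit. It was 24.1 FPKM with siHNRNPA1 (23.3 to 24.9) and 18.8 in the control (18.2 to 19.3), a log2 fold of 0.34, but 3602 counts against 4722, or 0.723 times the control in CPM (0.692 to 0.755). The FPKM-weighted mean length of its transcripts was 4504 bases with siHNRNPA1 and 8094 in the control, at least 1.5 times shorter, as in 1.33% of 5715 genes; none of the enzymes was as much longer, where 1.35% of genes were. Of the 9 enzymes with several forms 3 had a shorter mean length with siHNRNPA1 (PAICS, ADSL and GMPS), and 42.6% of all genes had.

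HPRT1, which salvages hypoxanthine and guanine, had 12.2 FPKM with siHNRNPA1 (11.2 to 13.3) and 11.4 in the control (10.4 to 12.4), a log2 fold of 0.10. The difference was not detectable at this depth, with 570 and 495 counts. In the control the order of levels was IMPDH2, GART, ATIC, PAICS, ADSL, PFAS, IMPDH1, GMPS, PPAT and HPRT1, with the intervals of GART and ATIC overlapping. With siHNRNPA1 it was IMPDH2, PAICS, ATIC, PFAS, ADSL, GART, IMPDH1, GMPS, HPRT1 and PPAT.

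**Figure D4:**
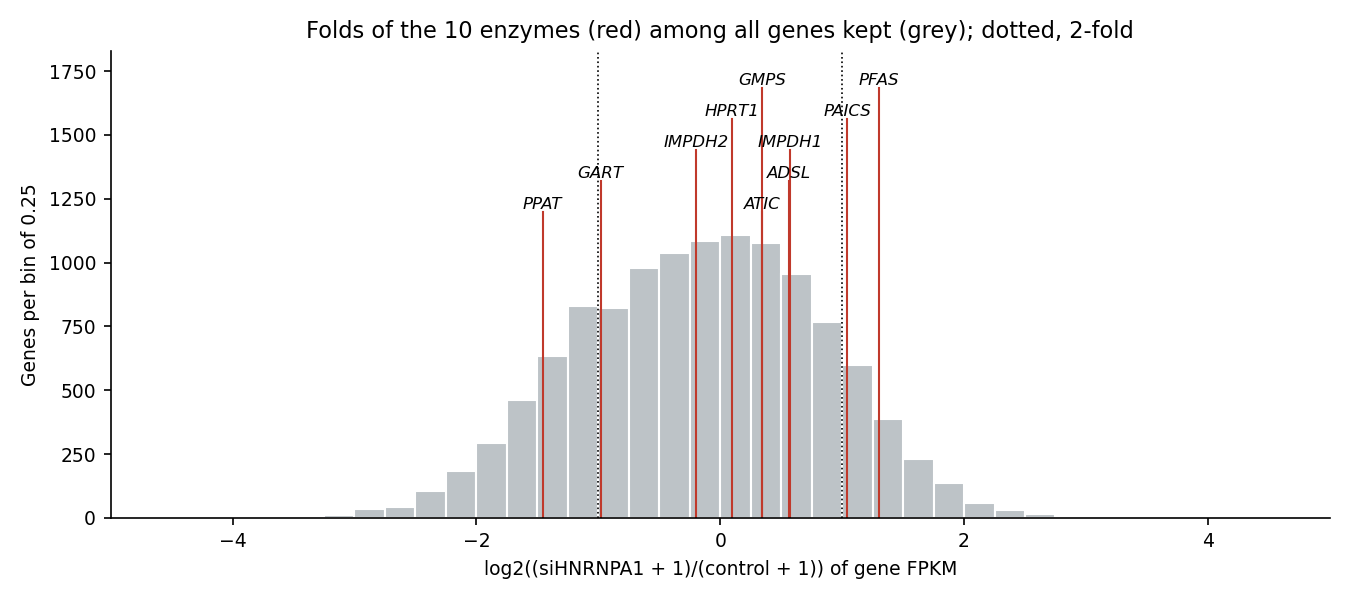
Grey bars count the 11921 genes kept by log2 fold in bins of 0.25, and red lines mark the 10 enzymes; dotted lines stand at 2-fold. The enzymes spread from -1.46 (PPAT) to 1.30 (PFAS) over the body of the distribution.

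Folds over all genes went with base composition and length. Across the genes kept (genes are not replicates of one another) the fold had a Spearman's rho of 0.58 with the GC content and -0.46 with the length of the leading transcript. The leading transcripts of PPAT and PAICS have a GC content of 37.9% and 42.6%, those of PFAS and IMPDH1 58.2% and 62.2%. The median fold of the 100 genes most like each gene in GC content, length and mean level was therefore subtracted from its own. By that measure PAICS stood at 1.83, GMPS at 1.68 and PFAS at 1.13, each at least 2-fold higher, where 8.06% of all genes were. No member was at least 2-fold lower, where 8.4% were: PPAT stood at -0.23, GART at -0.42, IMPDH2 at -0.63 and ADSL at -0.19. ATIC stood at 0.32, HPRT1 at 0.32 and IMPDH1 at 0.01. PAICS and PFAS were thus higher with and without the subtraction, PPAT was 2-fold lower only without it. GMPS was past 2-fold only with the subtraction, and in CPM it stood below the control, at 0.723 times its level. For ADSL and GMPS the length used was that of ADSL-209 and of GMPS-203, which was not the leading form of GMPS with siHNRNPA1. For PAICS the GC content and length used were those of PAICS-208 (3340 bases), which held 1.07% of the gene's FPKM in the control.

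Of the 10 genes, 8 were matched in the RefSeq promoter table (GRCh38.p14), whose windows span a transcription start and lie mostly before it; ADSL and IMPDH2 were not matched. The E-box CACGTG, the same on both strands, was in 3 of their 12 windows (1 each of PPAT, PAICS and ATIC), and in 7.26% of all windows. PPAT and PAICS share 1 such stretch of letters, since their windows overlap. GGGCGG on either strand was in 9 of the 12 windows, at least 1 for each of the 8 genes, and in 45.0% of all windows. CCAAT on either strand was in 3 of the 12, all of GART, and in 34.6% of all windows. The GART windows chr21:33542840-33543139 and chr21:33542843-33543142 are almost the same stretch. Genes with CACGTG and genes with GGGCGG had folds on both sides of 0, while GART, the only gene with CCAAT, stood at -0.98.

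Other enzymes around the pathway were compared in 6 lists of 68 kept genes. Of these, 13 were at least 2-fold higher with siHNRNPA1 and 12 lower, with a median log2 fold of 0.09. Among all genes kept, 12.4% were as much higher and 21.9% as much lower, and the counts of the single lists below stand against the same shares. The supply of PRPP and the adenine branch had the lowest median, -0.90, with 3 of 6 genes at least 2-fold lower and none higher. PRPS1, the main PRPP synthetase, had 38.4 FPKM with siHNRNPA1 and 81.5 in the control (-1.06), and its paralog PRPS2 2.86 and 10.2 FPKM (-1.54). ADSS (ADSS2), which starts the branch to AMP, had 10.3 and 26.1 FPKM (-1.26) and shares its strand and part of its locus with AL645465.1. With the fold of like genes subtracted, these 3 were within 2-fold, at -0.91, -0.76 and -0.42, and ADSSL1, the muscle-type counterpart of ADSS named here after its value was seen, stood at -1.17.

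Salvage and interconversion enzymes had the highest median, 0.69, with 6 of 19 genes at least 2-fold higher and 2 lower. APRT, the adenine counterpart of HPRT1, had 243 FPKM with siHNRNPA1 and 99.3 in the control (1.28). NME3, a nucleoside diphosphate kinase, stood at 2.203. DCK, deoxycytidine kinase, stood at -1.62 and the mitochondrial adenylate kinase AK3 at -1.57. After the subtraction 1 gene of the list was at least 2-fold higher (NME3, 1.11) and none lower, with APRT at 0.38, DCK at -0.84 and AK3 at -0.70. Among 8 kept genes of purine degradation the median was -0.52, with 3 past 2-fold upward and 1 downward. ITPA, which removes inosine triphosphate, stood at 1.90, the deoxyribonucleotidase NT5C at 1.45 and the IMP and GMP nucleotidase NT5C2 at -2.12. After the subtraction ITPA (1.17) and NT5C2 (-1.10) were past 2-fold and NT5C (0.41) was within it. ENTPD2, named here after its value was seen, was also past it, at -1.36.

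The formyl groups for GART and ATIC come from one-carbon metabolism. Of its 18 genes 1 was at least 2-fold higher and 4 lower (median 0.11). PHGDH, the first enzyme of serine synthesis and the most abundant of the list, had 556 FPKM with siHNRNPA1 and 319 in the control (0.80); it is named here after its value was seen. MTHFD1, the cytosolic enzyme that makes formyl folate, had 77.5 FPKM with siHNRNPA1 and 72.6 in the control (0.09). MTHFD2, its mitochondrial counterpart, had 40.1 and 45.1 FPKM (-0.16), and SHMT2, which takes the carbon from serine, 288 and 220 FPKM (0.38). The largest folds were those of MTHFS (1.57), which overlaps the readthrough gene ST20-MTHFS, ALDH1L2 (-1.53) and the glycine cleavage enzyme GLDC (-1.25). Of 4 ribonucleotide reduction genes 1 was at least 2-fold lower, RRM2B (-2.15), with the large subunit RRM1 at -0.98 and the deoxynucleotide hydrolase SAMHD1 at -0.27. In pyrimidine synthesis the median of 13 genes was 0.18, with 3 past 2-fold upward and 1 downward. The thymidine kinase TK1 (1.77), the thymidylate kinase DTYMK (1.66) and the uridine-cytidine kinase UCK1 (1.41) had the largest folds. With the fold of like genes subtracted these 3 were within 2-fold, at 0.89, 0.91 and 0.73, whereas UMPS (1.68) and CTPS1 (1.076), named here after their values were seen, were past it. By the same measure RRM2B (-0.88) and ALDH1L2 (-0.54) were within 2-fold, and MTHFS (1.56) and GLDC (-1.19) remained past it. SLC25A32 (-1.09) of the one-carbon list and RRM2 (1.04) of ribonucleotide reduction, named here after their values were seen, were past it as well. Of the 127 kept genes that the deposited KEGG column assigns to purine metabolism, a list added after the values had been seen, 22 were at least 2-fold higher and 21 lower (median 0.03).

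**Figure D5:**
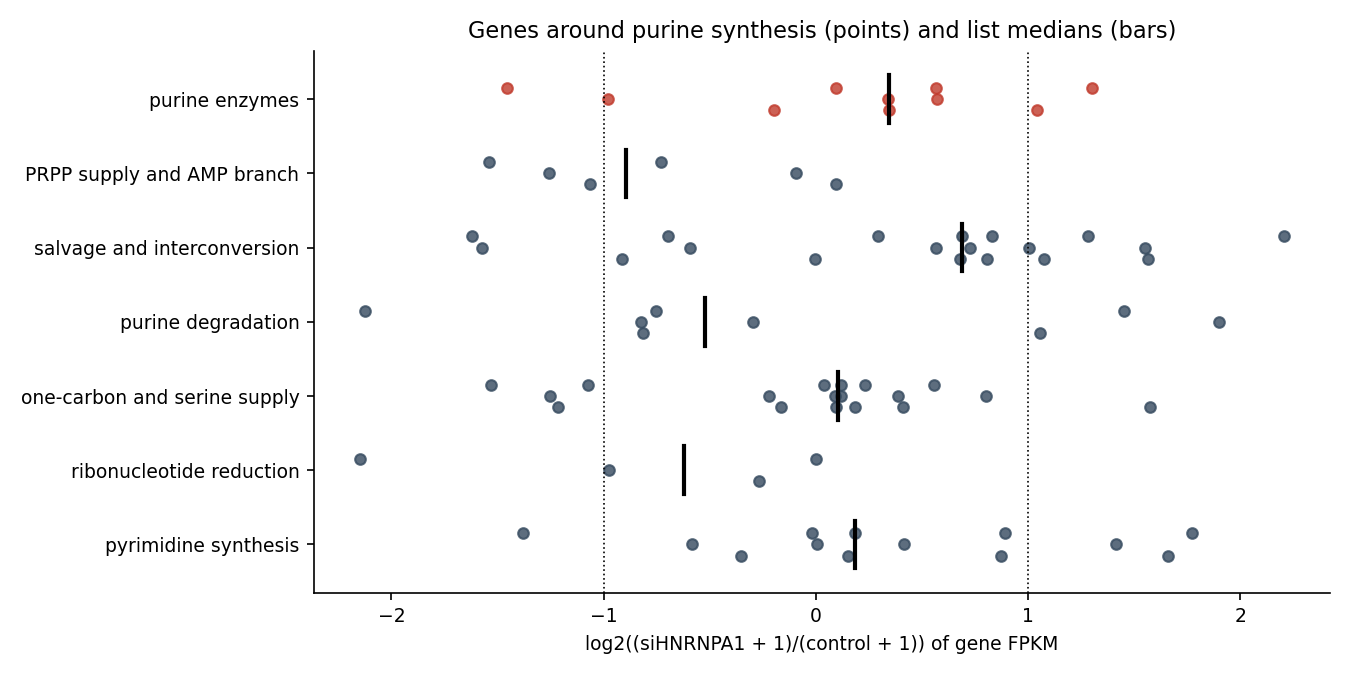
Points are the log2 folds of kept genes, with the 10 purine enzymes in red and 6 lists around them in dark; vertical bars are list medians and dotted lines 2-fold. The medians run from -0.90 for PRPP supply and the AMP branch to 0.69 for salvage and interconversion.

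The libraries had totals of 28147828 (siHNRNPA1) and 26680342 (control) estimated counts. The targeted gene HNRNPA1 stood at 179.9 FPKM with siHNRNPA1 against 663, or 27.1% of the control. All 8 pluripotency markers were above 1 FPKM in both libraries, with sums of 2043 FPKM with siHNRNPA1 and 2064 in the control, but single markers differed. POU5F1 had 1355 and 864 FPKM (0.65), while PODXL (-1.61), DPPA4 (-1.54) and SOX2 (-1.10) were at least 2-fold lower with siHNRNPA1. The 4 neural markers summed to 212 FPKM with siHNRNPA1 and 76.5 in the control, all but a small part of it NES and TUBB3, while PAX6 was at 0 and 0.0088 FPKM. Fibroblast markers summed to 215 and 260 FPKM, mostly THY1, with COL3A1, DCN and LUM listed at 0 in both. Mesoderm markers, mostly KDR, summed to 8.62 and 32.6 FPKM and endoderm markers to 1.69 and 0.263 FPKM. The part of these differences in the values of the purine enzymes was not tested.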

How the data were processed

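Per the labels' protocols, libraries were made from total RNA with a kit for mRNA. Aligner, quantifier and annotation: not given in the sources used here. Mouse builds, GRCm38 and mm10, stand in the submitters' processing notes, but the identifiers are human. All 70 member transcripts have the positions of GENCODE 29 (GRCh38). The authors deposited estimated counts (whole numbers), TPM and FPKM per transcript, per the file headers. The description label ties 1 library per condition to its columns; titles end in #1, and no label says whether this marks a culture or a small interfering RNA; 6 further columns of per-sample values were not used.

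Transcript FPKM was summed per gene. Folds are log2((siHNRNPA1 + 1)/(control + 1)); genes with a mean of at least 1 FPKM were kept and counted from 2-fold on. A share difference counted from 20 points on, over genes of several transcripts that reached 5 FPKM in each library. The 95% intervals, exact Poisson on levels and Clopper-Pearson on shares, treat estimated counts as reads, so they leave out errors in dividing reads between transcripts. On gene FPKM the interval of the gene's summed count was scaled, as if all its transcripts had the same FPKM per count. It is therefore exact for the count and approximate for the FPKM. Calculations used Python 3.11.15, pandas 2.3.3 and scipy 1.17.1 and were tested on simulated data.

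The members, the lists and the rule for naming were chosen with earlier results of these data known. The rule took the 10 genes, PAICS transcripts from 2% and other members' transcripts from 10% of the gene in either library. It added the 3 genes on each side of PAICS in share difference, the largest 3 folds of each list, and PRPS1, PRPS2, ADSS2, APRT, MTHFD1, MTHFD2, SHMT2 and HNRNPA1. Alternatives were other pseudocounts, units, scalings, filters and transcript sets.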

Additional observations from a re-analysis of the deposited data

How the results depend on the processing

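No paired analysis was possible because each condition has 1 library. The median log2 fold of the 10 genes, 0.34, was 0.20 on TPM, 0.50 after rescaling to a median ratio of 1 (which moves the median of all genes from -0.13 to 0.00054), 0.26 on CPM and 0.16 after subtraction of the nearest genes. At least 2-fold higher were 2 members, but 1 with a pseudocount of 5 FPKM, on TPM and on CPM, where PAICS stood at 0.99, 0.90 and 0.77. At least 2-fold lower was 1 member, but 2 on TPM, where GART stood at -1.14, and 0 after the subtraction. PFAS was at least 2-fold higher under each of these. Of the 11921 genes kept, 1256 were as much higher and 3336 lower on TPM, and 1730 and 2942 on CPM. With a pseudocount of 5 FPKM 841 and 947 were, and after the subtraction 8.06% and 8.4%. The counts of list genes below stand against the same numbers. GMPS turned to -0.46 on CPM and HPRT1 to -0.05 on TPM, and ADSL to -0.19 after the subtraction. Of the 68 genes in the lists around the pathway 25 were past 2-fold (13 higher, 12 lower), but 16 with a pseudocount of 5 FPKM (5 lower) and 11 after the subtraction (6 higher, 5 lower). The PAICS share difference of 94.2 points was 91.1 on counts and 74.5 with transcripts of the same introns joined. The 4 enzymes with a difference of 20 points became 7 at 10 points (62.5% of all genes). With protein-coding transcripts only they became 5 of 8 compared, ADSL being added, where 38.8% of 5555 genes had a difference of 20 points. PPAT has 1 protein-coding transcript and dropped out of that comparison. With 1 library per condition, neither depth nor these alternatives measure how far replicates would differ.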
